A study of Solanum lycopersicum with 17 samples.

Results

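Floral buds of the male-sterile tomato line ms1035 were compared with buds of the male-fertile line T-1082 at the latest of the 3 stages sampled, stage 3. The comparison took the 6 libraries labelled stage 3, of 17 libraries in all: 3 of ms1035 (sterile) and 3 of T-1082 (fertile). Both groups were whole floral buds of Solanum lycopersicum, with RNA extracted with TRIzol, and no treatment or age was given for either. The labels number the stages without saying what bud size or anther phase each stands for. They call the libraries biological replicates without saying whether they came from separate plants. Each p-value thus reflects no more than how the libraries of its fit spread, and the main fit took all 17. The sterile line is labelled only by its line name and phenotype, and how closely the lines are related is not stated.

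Pollen forms inside the anther, where the tapetum, the innermost layer of the anther wall, feeds the developing microspores and supplies material for the pollen wall. A cascade of bHLH and MYB transcription factors, known best from Arabidopsis and rice, builds the tapetum and switches on its secreted proteins and proteases, and the layer then breaks down before pollen is shed. Genes of these cells therefore have a window of expression that closes as a bud matures, while petals grow and colour and pollen-specific genes come on late.

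Stage 3 libraries held 499608 to 782010 assigned reads, of which 98.7% to 99.3% were unique, and 18089 to 19011 of 34727 gene models had reads. With 0 reads in a group, a gene could still have reached 1.79 CPM (reads scaled to a common library total of 1e6 assigned reads) in sterile and 1.61 CPM in fertile buds, taking 3 reads over the group as the limit. Bounds and intervals from reads cover counting error only. In whole buds, fewer cells of a type and less RNA per cell cannot be told apart. The deposited tables pair no names with the gene identifiers, and 0 RefSeq entries hold such an identifier. Names are used here for the anther, tapetum and pollen genes, recalled from published tomato work, and for list genes whose symbol lies on the same chromosome and at a like place in the gene order of RefSeq (108 of 158 list genes). All others are given by identifier.

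Sterile buds at stage 3 had few or no reads of a small group of genes that were abundant in fertile buds. Of 13568 genes tested, 100 (0.737%) were called at an adjusted p under 0.05 by edgeR's quasi-likelihood test with Benjamini-Hochberg adjustment. Of these, 77 were lower (0.568%) and 23 higher (0.17%) in sterile buds. At an unadjusted p under 0.05, 1468 genes differed, or 10.8% where 5% is expected without any change. The median log2 difference over all tested genes was 0.02. Without sterile replicate 2 only 13 genes were called, and without fertile replicate 3 only 25, so the number of calls rests on single libraries. The plot of log2 difference against level shows both groups of called genes around a band centred on 0.

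**Figure D1:**
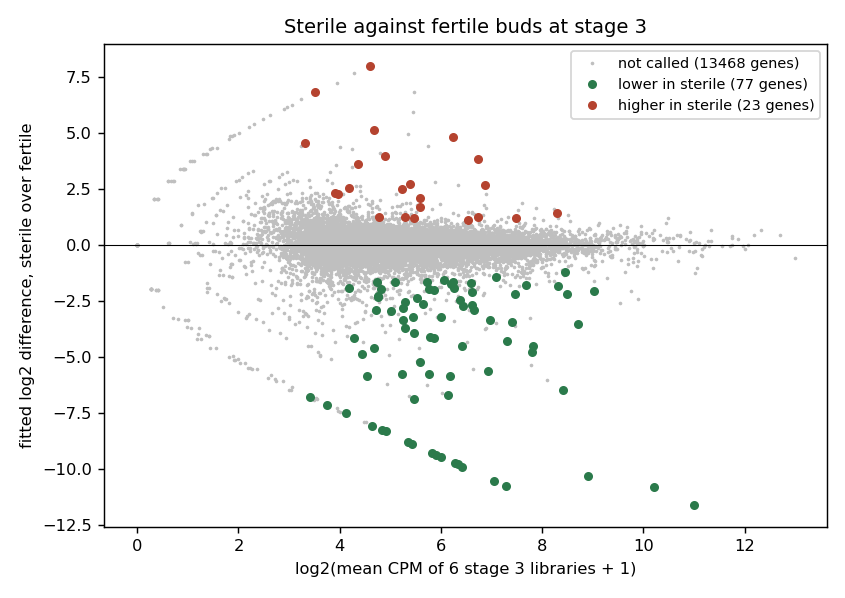
Each point is 1 of 13568 tested genes, placed by its level (log2 of mean CPM over the 6 stage 3 libraries plus 1) and its fitted log2 difference, sterile over fertile. The 77 genes called lower (green) reach -11.58 and the 23 called higher (red) reach 8.01. The slanted rows of points are genes with no or almost no reads in 1 group, whose fitted value depends on a small prior count.

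The clearest loss among known anther genes was the tapetum cysteine protease gene (Solyc07g053460), a member of the protease class that acts in the breakdown of the tapetum. It stood at 1931, 713 and 4426 CPM in fertile replicates 1, 2 and 3, and at 0, 1.99 and 1.59 CPM in sterile replicates 1, 2 and 3. Every fertile library thus lay far above every sterile one, although the fertile libraries differed several-fold among themselves. The means were 2356 ± 1893 CPM in fertile and 1.19 ± 1.05 CPM in sterile buds (SD, n = 3 each). The sterile group held 2 reads in all against 4422, a read ratio of 1994 with an exact 95% interval of 552 to 16467. On the log2 scale the difference was -10.78 with an SE of 1.25 (edgeR adjusted p = 0.000713), and the gene was called under each of 15 alternative settings.

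The other list gene that fell was AMS (Solyc08g062780), which encodes a bHLH factor acting in the tapetum. Fertile libraries held 161, 28.0 and 69.3 CPM, and sterile libraries 1.83, 0 and 0 CPM. A single sterile read stood against 180 fertile reads, a ratio of 162 with an exact 95% interval of 28.8 to 6446. The log2 difference was -6.84 with an SE of 1.04 (edgeR adjusted p = 0.00804). Its call was lost without sterile replicate 2 (edgeR adjusted p = 0.0610) and without all libraries numbered 3 (edgeR adjusted p = 0.0947). Its fertile mean had been 466 ± 70.5 CPM at stage 1 (SD, n = 2) and 373 ± 196 CPM at stage 2 (SD, n = 3), against 86.1 ± 68.1 CPM at stage 3 (SD, n = 3).

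None of the remaining tapetum genes passed the test. STR1 (Solyc03g053130), a gene of the strictosidine synthase-like class, stood at 209.7, 16.01 and 13.9 CPM in fertile and 0, 1.99 and 0 CPM in sterile libraries, so the groups did not overlap, with a single fertile library carrying most of the reads. Its edgeR adjusted p was 0.133, but DESeq2, the fit without the filter on low counts and the fit with the replicate number as a block called it lower. TomA108 (Solyc01g009590), an anther-specific secreted protein gene, held 42.2, 6.005 and 17.3 CPM in fertile against 1.83, 0 and 0 CPM in sterile libraries, again without overlap (edgeR adjusted p = 0.244, and called lower without the filter and with the block). The aspartic proteinase gene (Solyc06g069220) held 16.6, 2.00 and 8.66 CPM in fertile and 0, 7.96 and 1.59 CPM in sterile libraries, which overlap (edgeR adjusted p = 0.810).

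The anther regulators other than AMS were at or near the detection limit at this stage. Ms10 (Solyc02g079810), the bHLH gene of the ms10 locus, and MS1 (Solyc04g008420), a PHD-finger gene of tapetum and pollen wall development, had 0 reads in all 6 stage 3 libraries. Ms10 therefore checks nothing about the labels at this stage. Ms32 (Solyc01g081100), another tapetum bHLH gene, had 13 reads in fertile buds (12.8, 4.003 and 1.73 CPM) and 0 in sterile buds (edgeR adjusted p = 0.472). TDF1 (Solyc03g113530), a tapetum MYB gene, had 5 fertile reads and 0 sterile reads, and MYB80 (Solyc10g005760), a later tapetum MYB gene, had its reads in fertile replicate 1 alone, at 1.28 CPM. Summed over the 10 anther regulator and tapetum genes, fertile libraries ranged from 769 to 4542 CPM and sterile libraries from 3.18 to 11.9 CPM, a gap made almost wholly by the cysteine protease gene. Of the 10 genes, 5 had 0 reads in the sterile group and 2 had 0 reads in the fertile group.

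LAT52 (Solyc10g007270), a gene of late pollen, was too low for the test: fertile libraries held 5.12, 22.0 and 5.19 CPM and sterile libraries 0 reads. The 18 fertile reads in all stood in all 3 fertile libraries, most of them in replicate 2. Without the filter on low counts it was called lower (edgeR adjusted p = 0.0473). The plot of these genes by library sets stage 3 beside the earlier stages.

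**Figure D2:**
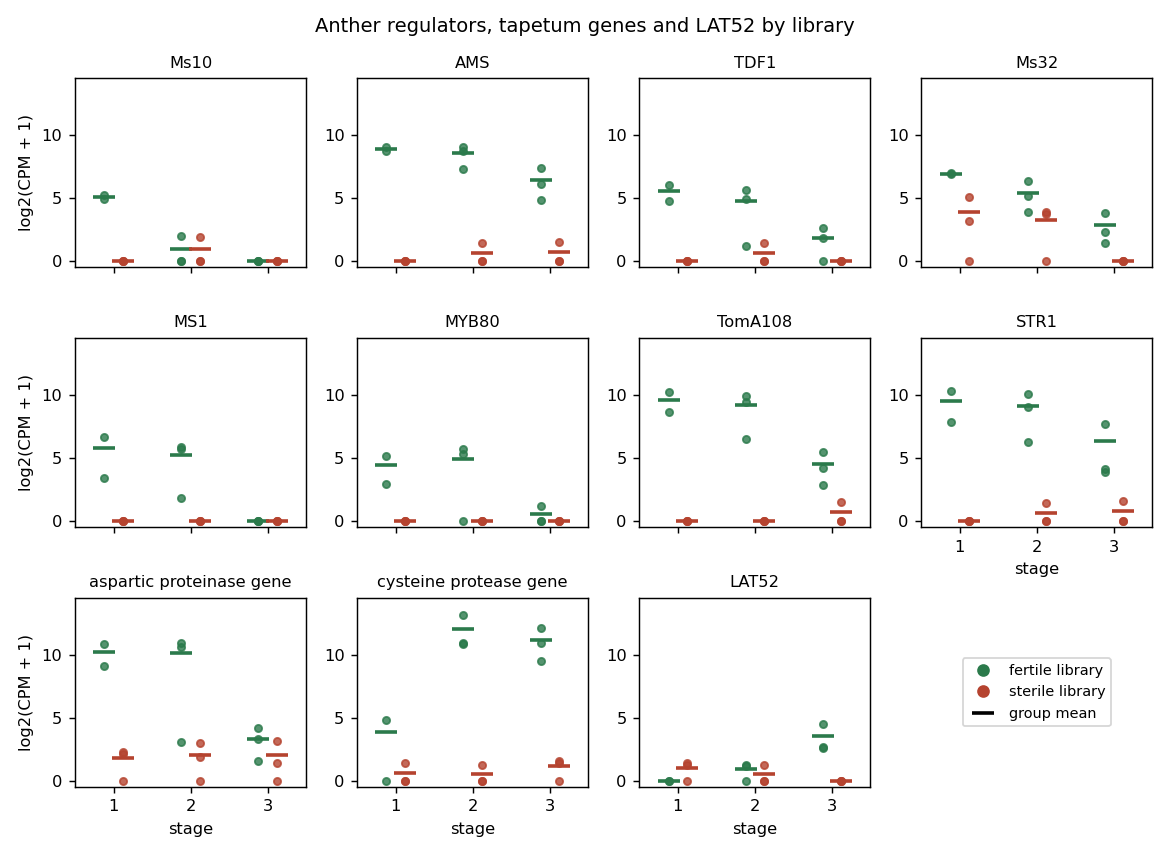
Level of 6 anther regulators, 4 tapetum genes and LAT52 in each library, as log2(CPM + 1), by stage; points are libraries (green fertile, red sterile) and bars are group means. At stage 3 the cysteine protease gene keeps fertile levels of 713 to 4426 CPM and AMS 28.0 to 161 CPM, whereas Ms10 and MS1 hold 0 reads in both lines.

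The 77 lower genes ranged from a log2 difference of -1.20 to -11.58, with a median of -3.70, or -3.52 with genes at 0 sterile reads set to their bound. Differences beyond 16-fold made up 37 of them, 24 lay between 4-fold and 16-fold, and 16 within 4-fold. Fertile levels were moderate to high, with a median of 111 CPM and a range of 19.3 to 4119 CPM. Sterile buds held 0 reads of 16 of the 77 genes, which gives folds of at least 11.1 to at least 186, and 1 to 3 reads of a further 11, with read ratios of 18.0 to 3509.9. Of the 16 genes at 0 reads, 6 also had none in the sterile libraries of stages 1 and 2. The 77 genes together took 1.84%, 1.20% and 2.85% of reads in fertile replicates 1, 2 and 3, and 0.206%, 0.158% and 0.150% in the sterile replicates. In none of the 77 did the groups overlap, as the call itself favours (7.65% of all tested genes were lower without overlap). Their median coding length was 1071 bases, against 1245 bases over all tested genes.

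Only 2 of the 77 belong to the gene lists, so most of them are genes for which the sources used here give no name. The 2 most abundant were Solyc02g078370 and Solyc03g098680. Solyc02g078370 stood at 3671, 1319 and 7367 CPM in fertile and 3.67, 0 and 0 CPM in sterile libraries, a read ratio of 3509.9 with an exact 95% interval of 971 to 28987. Solyc03g098680 stood at 997, 246 and 1619 CPM in fertile and 1.83, 0 and 0 CPM in sterile libraries, a read ratio of 1657 with an exact 95% interval of 297 to 65496. Fertile replicate 3 was the highest and replicate 2 the lowest for both, the same order as for the cysteine protease gene. Their log2 differences were -11.58 with an SE of 1.34 (edgeR adjusted p = 0.000713) and -10.29 with an SE of 1.32 (edgeR adjusted p = 0.00334), and all 15 alternative settings called both. Solyc03g098680 had 0 reads in both lines at stage 1 and a fertile mean of 2143 ± 2324 CPM at stage 2 (SD, n = 3).

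Reads of the 77 lower genes were not spread evenly over the fertile libraries. Replicate 2 was the lowest fertile library for 39 of the 77 genes (50.6%), against 33.9% of all tested genes. Among the 37 genes beyond 16-fold it was the lowest for 26, and among the other 40 it was the lowest for 13 and the highest for 14. Fertile replicate 3 was the highest for 40 of the 77, against 28.7% of all tested genes. On the sterile side, replicates 2 and 3 were the highest libraries for 16 and 10 of the 77. The other 51 were counted for replicate 1. Among these 51 are the 16 genes at 0 reads in every sterile library, where no library was higher. Over all tested genes replicate 1 was the highest for 28.4%, ties left out, so the 51 cannot be set against that share. What these libraries' differences contribute to the calls was not tested beyond leaving each out.

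The 23 genes higher in sterile buds had smaller differences, with a median log2 value of 2.54 and a range of 1.13 to 8.01. Differences beyond 16-fold made up 5, with 10 between 4-fold and 16-fold and 8 within 4-fold. Sterile levels had a median of 60.7 CPM and reached 458 CPM. Fertile buds held 0 reads of 2 of the 23 and 1 to 3 reads of a further 2. Together the 23 took 0.187%, 0.276% and 0.217% of reads in sterile replicates 1, 2 and 3, and 0.0651%, 0.0522% and 0.0556% in the fertile replicates. Sterile replicate 2 was the highest sterile library for 13 of the 23 (56.5%), against 40.5% of all tested genes. In none of the 23 did the groups overlap, as the call again favours (6.63% of all tested genes were higher without overlap), and none belongs to a gene list.

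The 2 most abundant of them were Solyc02g080530 and Solyc12g040790. Solyc02g080530 stood at 347, 439.9 and 588 CPM in sterile and 214, 132 and 149 CPM in fertile libraries, a log2 difference of 1.45 with an SE of 0.29 (edgeR adjusted p = 0.0228). Solyc12g040790 stood at 233, 285 and 231 CPM in sterile and 110.0, 96.1 and 107 CPM in fertile libraries, a log2 difference of 1.22 with an SE of 0.22 (edgeR adjusted p = 0.0118). Sterile libraries lay above all fertile ones in both genes, with fitted folds of 2.73 and 2.33. The call of Solyc02g080530 was lost under 6 of 15 alternative settings and that of Solyc12g040790 under 5, among them leaving out sterile replicate 2, fertile replicate 2 or fertile replicate 3.

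**Figure D3:**
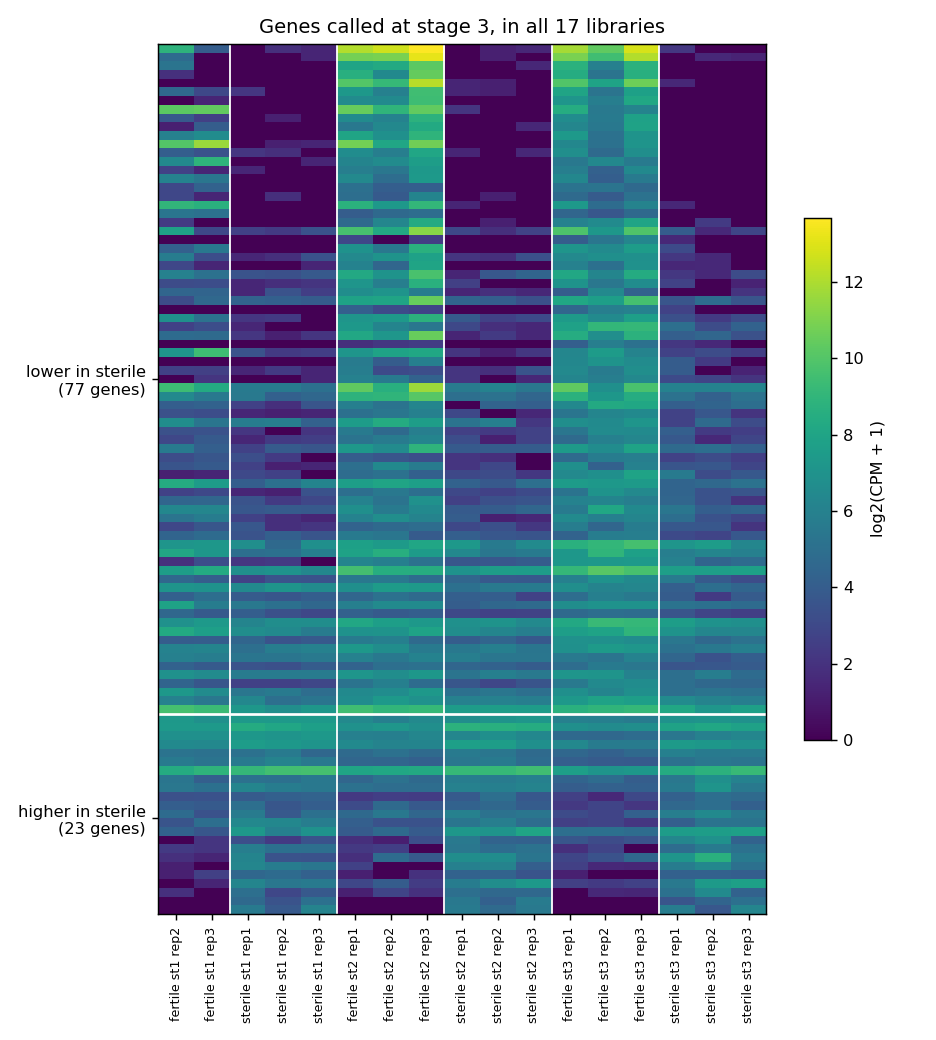
Level of the 100 genes called at stage 3 in all 17 libraries, as log2(CPM + 1), in rows ordered by their stage 3 log2 difference and columns by stage and line. The 77 lower genes, above the white line, are darker in the sterile than in the fertile columns of stage 3, and 50 of them still held more than 3 sterile reads; the 16 with 0 sterile reads are among those with the largest differences.

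The late line difference was mostly already present a stage earlier. Of the 77 lower genes, 58 were also called lower at stage 2 (75.3% of the 77 and 19.2% of the 302 genes lower there), where 2.23% of tested genes were called lower. All 77 had the same sign at stage 2, with a median log2 difference of -4.31. At stage 1, 18 of the 77 were called lower (23.4% of the 77 and 12.2% of the 148 there, where 1.09% of tested genes were called lower), 70 had the same sign and the median was -1.96. All 16 genes with 0 sterile reads at stage 3 were called at stage 2, and 7 of them at stage 1. The 3 stages share no libraries, but libraries with the same number deviated together between stages 2 and 3 in each line, with residual correlations over genes of 0.190 to 0.461, so the stages are not fully separate observations.

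Among the higher genes, too, the sign at stage 2 was the same throughout. At stage 2, 13 of the 23 were called higher (56.5% of the 23 and 15.9% of the 82 there, where 0.604% of tested genes were called higher), all 23 had the same sign and the median was 1.71. At stage 1, 5 of the 23 were called higher (21.7% of the 23 and 50% of the 10 there, where 0.0737% of tested genes were called higher) and 22 had the same sign. In fitted size, 33 of the 77 lower genes and 19 of the 23 higher genes differed more at stage 3 than at stage 2.

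Calls at stage 3 alone were not shown to be particular to stage 3. There were 19 lower and 10 higher genes called at stage 3 and at neither earlier stage. Of those, 2 lower and 5 higher genes reached an unadjusted p under 0.05 for a difference between the stage 3 and stage 2 line differences, and 5 and 8 for stage 3 against stage 1. Over all genes 0 were called in either comparison by edgeR after Benjamini-Hochberg adjustment (0.0%). At an unadjusted p under 0.05 there were 337 genes (2.48%) for stage 3 against stage 2 and 455 (3.35%) for stage 3 against stage 1. Both shares lie under the 5% expected without any change, so the lack of calls does not show that the line difference stays the same between stages. DESeq2 called 5 and 9 genes and limma-trend 2 and 11.

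Fertile levels of the lower genes peaked at different times. The fertile mean was highest at stage 1 for 11 of the 77 lower genes, at stage 2 for 33 and at stage 3 for 33. Among the 23 higher genes, the sterile mean was highest at stage 3 for 12. The plot of the stage 3 difference against those of stages 2 and 1 shows points close to the diagonal for stage 2 and nearer 0 for stage 1.

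**Figure D4:**
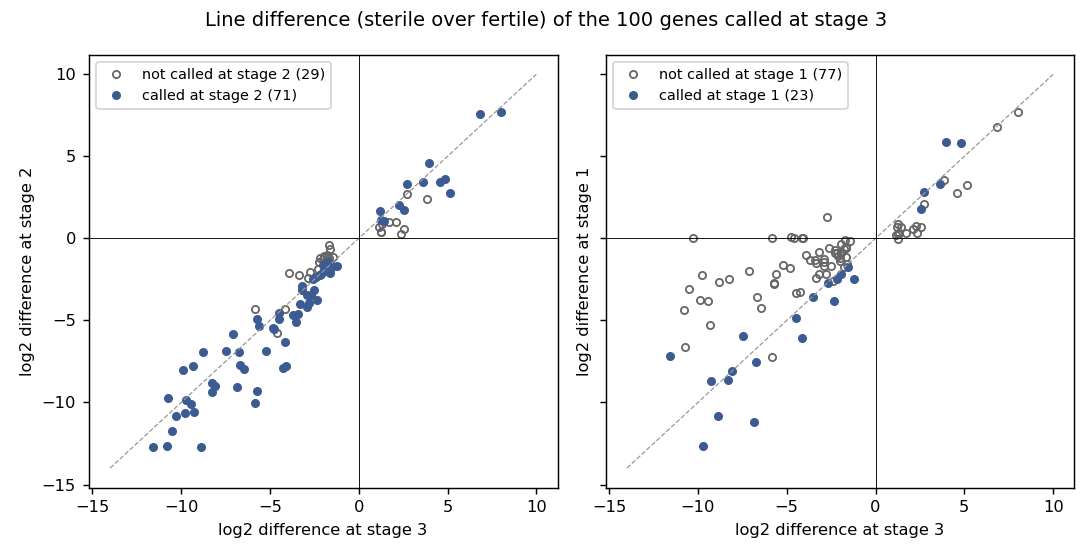
Fitted log2 difference, sterile over fertile, of the 100 genes called at stage 3 (horizontal axes) against the same at stage 2 (left) and stage 1 (right); filled points were called at that stage, and the dashed line marks equal differences. At stage 2, 71 of 100 were called (2.83% of all tested genes) and all 100 had the same sign; at stage 1, 23 were called (1.16% of all tested genes).

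Floral identity genes, MADS-box transcription factors that specify petals, stamens and carpels, leaned lower in sterile buds, and none passed the test. All 14 were tested, 13 had a negative log2 difference and the median was -0.43. Of the 14, 6 reached an unadjusted p under 0.05, and the groups did not overlap in 6, against 10.8% and 14.3% of all tested genes. The PISTILLATA-type gene Solyc08g067230, of the class that specifies petals and stamens, stood at 668, 342 and 475 CPM in sterile and 872, 1295 and 1122 CPM in fertile libraries (log2 difference -1.16, SE 0.28, edgeR adjusted p = 0.0672). TAG1, the AGAMOUS gene of stamens and carpels, stood at 363, 289 and 243 CPM in sterile and 676, 496 and 590.4 CPM in fertile libraries (edgeR adjusted p = 0.0999). TM5, a SEPALLATA-type gene, stood at 198, 195 and 186 CPM in sterile and 329.9, 382 and 315 CPM in fertile libraries (edgeR adjusted p = 0.138). In these 3 genes every sterile library lay below every fertile one. DESeq2 called all 3 lower. Solyc08g067230 was also called lower by limma-trend, without the filter, with the replicate block and without sterile replicate 1.

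Markers taken for petals were highest, among sterile libraries, in replicate 1. These 6 markers were TM6, MYB21, Solyc04g081000, Solyc08g067230, Solyc06g059970 and Solyc01g098110. TM6, Solyc04g081000, Solyc08g067230 and Solyc06g059970 belong to the class that specifies petals and stamens, and MYB21 acts in stamens too. The sum therefore does not stand for petals alone. The summed level of these 6 markers was 2292 CPM in sterile replicate 1, against 951 and 1064 CPM in replicates 2 and 3 and 2203 to 3625 CPM in fertile libraries. Among the 12 carotenoid genes, which make the yellow pigment of tomato petals, the median log2 difference was -0.35 and sterile replicate 1 was the highest sterile library for 8, or 66.7%, against 28.4% of all tested genes. The same share was 63.6% of the wound and defence list, 60% of the jasmonate list and 57.1% of the cutin and wax list. It was 50% of the floral identity, gibberellin and ethylene lists and 37.5% of the reference list. High shares were therefore not particular to petal genes. The share was 13.3% of the flavonoid and anthocyanin list and 0% of the photosynthesis and steroidal alkaloid lists. These list shares were taken over all list genes, tested or not, and the 28.4% over tested genes only. For lists with untested genes the bases therefore differ. CYCB, a lycopene cyclase gene, stood at 34.9, 9.95 and 3.18 CPM in sterile and 39.6, 64.1 and 53.7 CPM in fertile libraries (edgeR adjusted p = 0.208, and called lower without sterile replicate 1). PSY1, the phytoene synthase gene at the head of the pathway, stood at 165, 95.5 and 50.9 CPM in sterile and 88.2, 570.4 and 163 CPM in fertile libraries (edgeR adjusted p = 0.288). PDS, a phytoene desaturase gene, had a log2 difference of -0.68 (edgeR adjusted p = 0.424) and BCH2, a carotene hydroxylase gene and the most abundant of the list, one of -1.59 (edgeR adjusted p = 0.542). MYB21, a regulator of late stamen and petal growth, stood at 238, 67.7 and 70.0 CPM in sterile and 123, 426 and 309.9 CPM in fertile libraries (edgeR adjusted p = 0.582). The part that petal or stamen content plays in these values was not tested.

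Flavonoid and anthocyanin genes leaned the other way. Of 15 genes 11 were tested, 9 with a positive log2 difference, and the median was 0.22. Of the 11, 5 reached an unadjusted p under 0.05, 1 lower and 4 higher, against 10.8% of all tested genes. AN2, a MYB activator of anthocyanin synthesis, stood at 12.8, 23.9 and 15.9 CPM in sterile and 2.56, 4.003 and 3.46 CPM in fertile libraries, without overlap (log2 difference 2.33, SE 0.61, edgeR adjusted p = 0.101). DFR, a reductase of the anthocyanin branch, stood at 9.17, 17.9 and 7.95 CPM in sterile and 2.56, 0 and 0 CPM in fertile libraries (edgeR adjusted p = 0.163). Solyc03g115220 had a log2 difference of 0.89 (edgeR adjusted p = 0.139), and CHS2, a chalcone synthase gene and the most abundant of the list, one of 0.15 (edgeR adjusted p = 0.866). AN2 was called higher only without the filter on low counts, among the 13 alternatives that tested it.

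Sugar supply genes included a pair of cell wall invertases that feed the anther and flower. LIN7, known for its expression in anthers and pollen, stood at 1.83, 7.96 and 1.59 CPM in sterile and 21.7, 22.0 and 19.0 CPM in fertile libraries, without overlap (log2 difference -2.50, SE 0.76, edgeR adjusted p = 0.178). LIN5, an invertase of flowers and fruit, stood at 67.9, 15.9 and 9.54 CPM in sterile and 67.8, 56.0 and 76.2 CPM in fertile libraries, with sterile replicate 1 at the fertile level. Its edgeR adjusted p was 0.354, and it was called lower without sterile replicate 1. The vacuolar invertase gene TIV1 had a log2 difference of -0.59 (edgeR adjusted p = 0.526) and the sucrose synthase gene SUS1 one of 0.08 (edgeR adjusted p = 0.966). Over the 9 tested of 11 genes the median was -0.23.

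Against 0.737% of all tested genes, 0 of 11 wound and defence genes were called. The gene with the smallest p among them, Solyc00g174340, stood at 45.9, 205.0 and 3.18 CPM in sterile and 0, 0 and 3.46 CPM in fertile libraries (log2 difference 5.96, SE 1.41, edgeR adjusted p = 0.0665). Solyc01g008620 stood at 58.7, 229 and 17.5 CPM in sterile and 6.39, 2.00 and 3.46 CPM in fertile libraries (log2 difference 4.43, SE 1.06, edgeR adjusted p = 0.0672). Both were highest in sterile replicate 2, and both were called higher without the filter, with the replicate block and without sterile replicate 3. ARG1, an arginase gene, leaned the other way, with 14.7, 11.9 and 15.9 CPM in sterile and 33.2, 48.0 and 39.8 CPM in fertile libraries (edgeR adjusted p = 0.0955). TD, the threonine deaminase gene and the most abundant of the list, ranged from 3656 to 11718 CPM in sterile and from 7599 to 12750.5 CPM in fertile libraries, which overlap (edgeR adjusted p = 0.851). Over the 11 genes the median was -0.03. Of the 11, 4 reached an unadjusted p under 0.05, 1 lower and 3 higher, against 10.8% of all tested genes.

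Hormone lists held no called gene, where 0.737% of all tested genes were called. Among 15 jasmonate genes, of the hormone that drives anther opening, 0 reached an unadjusted p under 0.05 and the median log2 difference was -0.09. LOXD, a lipoxygenase gene of jasmonate synthesis and the most abundant of the list, stood at 347 to 631 CPM in sterile and 222 to 645 CPM in fertile libraries. AOS2, an allene oxide synthase gene, stood at 60.4 to 65.7 CPM in sterile and 31.97 to 50.2 CPM in fertile libraries, without overlap (edgeR adjusted p = 0.594). The medians were -0.54 over 4 tested gibberellin genes, -0.15 over 10 tested ethylene genes and 0.31 over 5 auxin and fruit set genes.

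Lists of other processes held no called gene either, against the same 0.737% of all tested genes. The medians were -0.53 over 6 tested cutin and wax genes, 0.15 over 9 steroidal alkaloid genes, 0.17 over 6 heat stress genes and 0.01 over 8 reference genes. GPAT6, a cutin synthesis gene, stood at 65.7 to 157 CPM in sterile and 159 to 239 CPM in fertile libraries, without overlap (edgeR adjusted p = 0.408). HSFB1, a heat shock factor gene, had a log2 difference of -0.95 (edgeR adjusted p = 0.227). Solyc06g005060, the most abundant reference gene, stood at 1750.5 to 2227 CPM in sterile and 1353 to 1972 CPM in fertile libraries (edgeR adjusted p = 0.714).

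Markers of other bud tissues were also read in both lines. The 5 carpel and ovule markers summed to 23.9 to 44.5 CPM in sterile and 29.4 to 41.6 CPM in fertile libraries. Of the 5, 1 had 0 reads in the sterile group. Only 2 of them were tested, with log2 differences of opposite sign (-0.87 and 1.07), and 0 were called. The 9 photosynthesis genes, which mark green tissue, summed to 8459, 10658 and 24625 CPM in sterile replicates 1, 2 and 3 and to 11495 to 15254 CPM in fertile libraries. Sterile replicate 3 therefore stood above, and replicates 1 and 2 below, the fertile range. The median log2 difference of the 9 genes was 0.20 (0 called), and that of RBCS3B, a Rubisco small subunit gene, was 0.04 and turned to -0.74 without sterile replicate 3.

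**Figure D5:**
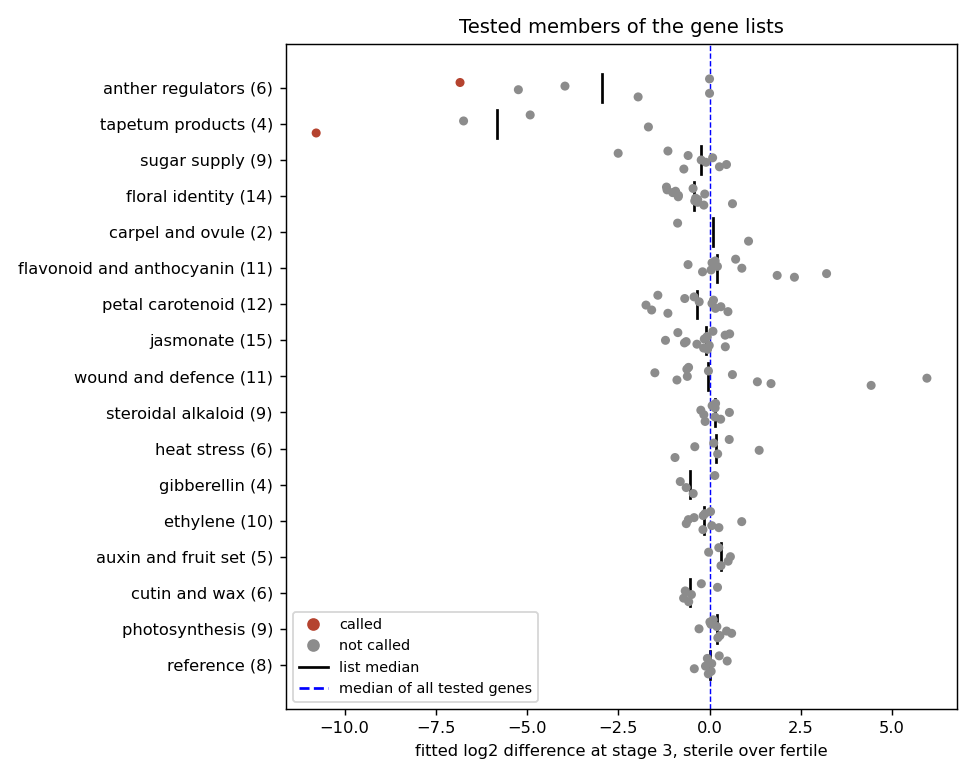
Fitted log2 difference at stage 3, sterile over fertile, of each tested member of 17 gene lists, with the number tested in brackets; black bars are list medians and the dashed line is the median of all tested genes (0.02). Among the list genes, the cysteine protease gene (-10.78) and AMS (-6.84) alone were called (red).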

How the data were processed

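RNA-seq libraries of floral buds were read from 1 deposited table per sample. Per the file headers, the tables hold counts of reads assigned to each gene model, in total and uniquely. They also hold RPKM, which the authors computed from those totals: 0 values differed by more than 1e-06 of their size. Gene lengths as deposited (another kind of value, in bases) are multiples of 3 for 34726 of 34727 models, so they are coding lengths. The aligner, counting program and use of strand were not given in the sources used here.

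Total counts went into edgeR's test (4.0.16, under R 4.3.3): filterByExpr with 6 groups of line and stage (13568 genes), TMM scaling (factors 0.901 to 1.09), and 1 quasi-likelihood fit over all 17 libraries with 11 residual degrees of freedom. Contrasts were sterile over fertile at each stage and their differences. A gene was called where its adjusted p (Benjamini-Hochberg) was under 0.05. SE is the size of the log2 difference over the square root of F. Levels are CPM of the total counts, computed here. Stage 3 libraries held 499608 to 782010 reads.

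Alternatives were other scalings, filters, unique reads, DESeq2 1.42.0, limma-trend 3.58.1 (prior count 2), a replicate block and left-out libraries. The 18 lists (158 genes) and their members were chosen with earlier results of these data known. Named genes are all anther regulators and tapetum products, every called list gene, up to 3 members of each other list by smallest p and its most abundant member, and the 2 most abundant unlisted genes called each way. The first replicate of fertile buds at stage 1 was not used here. A gene of the auxin and fruit set list is not reported here.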

Additional observations from a re-analysis of the deposited data

How the results depend on the processing

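The 100 genes called, 77 lower and 23 higher, became 179 (140 and 39) with DESeq2, 305 (243 and 62) without the filter on low counts, 163 (128 and 35) with limma-trend, 25 (21 and 4) without all libraries numbered 3, and 104 (91 and 13) in a fit of the 6 stage 3 libraries alone; in this order 96, 99, 97, 24 and 67 of the 100 were among them. Leaving out 1 library gave 13 to 129 calls, 10 to 110 lower and 2 to 27 higher: for the sterile line 117 without replicate 1, 13 without replicate 2 and 35 without replicate 3, and for the fertile line 129, 65 and 25 in the same order. The 2 libraries then left in a group were fitted with the spread of all groups. Higher genes were 23.0% of calls, but 40% without sterile replicate 3, 12.3% and 8% without fertile replicates 2 and 3, and 12.5% in the 6 libraries alone. Of the 100 genes, 57 were called in at least 10 of 15 alternatives and 9 in all 15. Same-numbered sterile and fertile libraries had residual correlations of -0.03, 0.05 and 0.25, which did not all pass 0.1, so the numbers were not taken to pair the samples; sterile replicate 2 correlated best with fertile replicate 1. With the replicate block there were 221 calls, 167 lower and 54 higher, among them all 100. Calls of a line difference that depends on stage were 0 for stage 3 against 2 and against 1, and became 5 and 9 with DESeq2, 6 and 11 without the filter, 2 and 2 with the replicate block, and 2 and 11 with limma-trend, with 0 to 1 on leaving out a library (1 against stage 1 without sterile replicate 2). Among the uncalled list genes run under the alternatives, those the naming rule took, the sign turned for 14. Leaving out single libraries, log2 values ranged from -0.16 to 0.41 for SUS1, -0.24 to 0.47 for LOXD, -0.56 to 0.069 for GAME7, -0.67 to 0.10 for GAME11, -0.33 to 0.62 for GAME17, -0.014 to 0.25 for PROCERA, -0.84 to 0.22 for GID1B2, -0.63 to 0.56 for ACO6, -0.61 to 0.058 for CD1, -0.74 to 0.36 for RBCS3B, -0.21 to 0.73 for CAB1A, -0.52 to 0.99 for CAB1B and -0.50 to 0.66 for Solyc12g011280. Without all libraries numbered 3 they were -0.066 for LOXD, 0.064 for ETR4, -0.32 for GAME17, 0.00772 for CD1, -0.67 for RBCS3B, -0.066 for CAB1A, -0.39 for CAB1B and -0.37 for Solyc12g011280. RBCS3B stood at -0.16 with the block, and limma-trend gave -0.18 for RBCS3B and -0.0354 for SUS1. The causes of these shifts were not tested. A gene at 3 reads over a group is the limit of detection at this depth.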

Other observations

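The following genes were chosen after their values were seen. Solyc08g068390 was 1 of 2 genes among the 23 higher ones that were called at all 3 stages and under all 15 alternative settings. It stood at 189, 195 and 219 CPM in sterile and 30.7, 32.03 and 27.7 CPM in fertile libraries at stage 3, with no overlap and a narrow spread within each line. Its log2 difference was 2.71 at stage 3 (SE 0.38, edgeR adjusted p = 0.00334), 3.31 at stage 2 and 2.80 at stage 1.

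Around Ms10 in the order of identifiers on chromosome 2, 33 genes within 40 models to either side were tested, Ms10 itself included, of which 1 was called lower and 1 higher, where 0.737% of all tested genes and 0.674% of those on chromosome 2 were called. The window was singled out because of Ms10, and no test was run on it. Solyc02g079780, 3 models before Ms10, stood at 31.2, 23.9 and 22.3 CPM in sterile and 46.0, 90.1 and 98.7 CPM in fertile libraries (log2 difference -1.61, SE 0.35, edgeR adjusted p = 0.0388), and its call was lost under 7 of 15 alternatives. Solyc02g079490, 32 models before Ms10, stood at 27.5, 47.8 and 33.4 CPM in sterile and 2.56, 6.005 and 0 CPM in fertile libraries (log2 difference 3.62, SE 0.61, edgeR adjusted p = 0.0103). It was called at all 3 stages, with log2 differences of 3.41 at stage 2 and 3.29 at stage 1, and at stage 3 its call was lost under 3 of 15 alternatives.

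Called genes lay within 5 models of each other in 7 pairs, 5 of them of the same direction. How many such pairs would arise without any clustering was not tested. Solyc11g073200 and Solyc11g073210, both lower, were directly adjacent, and so was a pair of opposite direction. Solyc04g073990 stood at 279, 143 and 221 CPM in sterile and 417, 498 and 547 CPM in fertile libraries (log2 difference -1.20, edgeR adjusted p = 0.0466). Its neighbour Solyc04g074000 stood at 56.9, 89.6 and 42.9 CPM in sterile and 7.67, 6.005 and 17.3 CPM in fertile libraries (log2 difference 2.54, edgeR adjusted p = 0.0300). Of the neighbour's reads 75.4% were unique, and whether strand was used in counting is not given. The neighbour's call was lost with unique reads alone and without all libraries numbered 3. It was also lost on leaving out any fertile replicate, or sterile replicate 2 or 3. In all, Solyc04g074000 was called under 8 of 15 alternatives and Solyc04g073990 under 9. By chromosome, the share of tested genes called ran from 0.171% on chromosome 6 to 1.22% on chromosome 4, leaving out models not placed on a chromosome.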
